A study of Mus musculus with 13 samples.

Results

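The cells described here are the fetal liver (FL) monocytes of a single-cell RNA-Seq library of F4/80+ cells from EKLF+/+ mouse embryos at E13.5. Each cell's counts were divided by its total and multiplied by 10000, a unit written per10k below. The 3093 cells in which 200 or more genes were detected entered the analysis. Among them, a cell was taken as a monocyte when Ly6c2, F13a1 and Ms4a6c summed to at least 5 per10k while C1qa, C1qb and C1qc summed to less than 10, S100a8 and S100a9 to less than 50, and Mpo, Elane and Prtn3 to less than 20. This gave 125 of 3093 kept cells, or 4.04% (95% exact binomial interval 3.38 to 4.80, counting error only), of 3096 barcodes in the library, none of which occurred more than once. The remaining cells were set apart by the same genes into 1663 C1q-high cells, 228 S100a8/S100a9-high cells, 95 Mpo/Elane/Prtn3-high cells and 982 other cells.

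The study asked what the transcription factor EKLF, encoded by Klf1, does in the F4/80+ cells of the FL. All embryos were E13.5, and the labels give the strain C57BL/6 throughout, while the study's resource list places the EKLF-null line in another background (129S4/SvJae). The single-cell library pooled 2 wild-type littermate embryos of 1 mother. Its cells were enriched for F4/80 on magnetic beads in the presence of a peptide that blocks Icam4 binding to the αv integrin, so it is 1 sample with no replicate, and all intervals on it cover counting error only. The 12 bulk libraries, which played no part in choosing the cells, hold FACS-sorted F4/80+ cells from 4 groups with 3 libraries each. The EKLF+/+ group was wild type and the EKLF-/- group carried the null allele. The EKLF/GFP+ and EKLF/GFP- groups were wild type at EKLF and carried the pEKLF-GFP transgene, in which the EKLF promoter drives GFP, and were separated by GFP. EKLF/GFP+ cells gave their RNA through the Absolutely RNA Nanoprep kit, whereas Trizol was used on EKLF/GFP- cells, so the effects of kit and group cannot be told apart. The study's methods also give a lower RNA integrity for EKLF/GFP+ than for the EKLF+/+ and EKLF-/- samples, whose part in the results was not tested. The labels do not say how many embryos went into each bulk library, and p-values measure the spread between these libraries.

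Monocytes are circulating phagocytes that arise from myeloid progenitors under the transcription factors PU.1 (Spi1), Irf8 and Klf4 and respond to the growth factor CSF1 through its receptor, Csf1r. The classical kind carries Ly6C and leaves the site of its production through the chemokine receptor Ccr2, while the patrolling kind has little Ly6C and depends on Nr4a1 and Cx3cr1. In the mouse embryo the FL makes monocytes from mid-gestation on, next to the resident macrophages of the erythroblastic islands, and such fetal monocytes seed many tissues. Of the genes that chose these cells, F13a1 encodes the A subunit of coagulation factor XIII, Ly6c2 a GPI-anchored surface protein, and Ms4a6c a membrane protein of the MS4A family.

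The promoters of 8 genes are shown. Those of 3 belong to the genes that chose the cells, that of Ms4a4c to a leading gene of the same family as Ms4a6c, and the other 4 carried the interferon-type motif that was more frequent among the leading genes of the monocytes, as counted below. Each run is the 250 bases before the first listed RefSeq start, 5′ to 3′ on the gene's strand, in GRCm38.p6, the build of the deposited files. Capitals mark the core of PU.1-type sites, GAGGAA or its reverse complement TTCCTC, and the interferon-type motif, which is GAAA followed by any 2 bases and GAAA again, or its reverse complement built on TTTC. Both strands were searched, and matches of the motifs can overlap. The 3 genes of the rule and Ms4a4c, a further MS4A gene, come first:
F13a1: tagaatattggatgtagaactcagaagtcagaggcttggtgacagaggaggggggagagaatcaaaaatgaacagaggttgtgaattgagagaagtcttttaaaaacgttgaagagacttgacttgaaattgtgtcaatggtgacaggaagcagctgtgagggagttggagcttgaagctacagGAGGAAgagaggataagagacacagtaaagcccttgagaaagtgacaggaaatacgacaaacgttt
Ly6c2: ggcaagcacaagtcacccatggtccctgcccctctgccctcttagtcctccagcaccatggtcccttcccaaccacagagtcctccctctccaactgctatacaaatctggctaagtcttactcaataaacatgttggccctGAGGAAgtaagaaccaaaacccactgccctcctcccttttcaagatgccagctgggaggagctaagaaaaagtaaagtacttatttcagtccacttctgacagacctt
Ms4a6c: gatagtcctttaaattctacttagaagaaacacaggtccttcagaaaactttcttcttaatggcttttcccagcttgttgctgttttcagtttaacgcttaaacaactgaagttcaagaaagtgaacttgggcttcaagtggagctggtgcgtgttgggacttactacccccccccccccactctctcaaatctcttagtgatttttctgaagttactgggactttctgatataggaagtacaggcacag
Ms4a4c: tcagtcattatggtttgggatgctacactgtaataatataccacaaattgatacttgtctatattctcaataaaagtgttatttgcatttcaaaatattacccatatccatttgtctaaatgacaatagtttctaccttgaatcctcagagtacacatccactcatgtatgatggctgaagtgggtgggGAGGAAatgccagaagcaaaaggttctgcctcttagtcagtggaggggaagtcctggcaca

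F13a1 lies at chr13:37050245-37050494 on the minus strand and Ly6c2 at chr15:75111972-75112221 on the minus strand, Ms4a6c at chr19:11469118-11469367 and Ms4a4c at chr19:11407411-11407660, both on the plus strand. The PU.1-type core was found 66 bases before the start of F13a1, 108 before that of Ly6c2 and 61 before that of Ms4a4c. The Ms4a6c window holds neither motif, which says only that these letters are not in this window. The bases after the listed start were found in the annotated GENCODE transcripts of each gene except Ly6c2. The other 4 carry the interferon-type motif:
Rnase6: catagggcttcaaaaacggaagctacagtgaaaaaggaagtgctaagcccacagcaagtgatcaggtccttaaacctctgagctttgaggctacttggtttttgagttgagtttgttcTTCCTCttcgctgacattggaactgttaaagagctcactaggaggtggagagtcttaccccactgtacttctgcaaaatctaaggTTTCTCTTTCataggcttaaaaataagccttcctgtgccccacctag
Slfn8: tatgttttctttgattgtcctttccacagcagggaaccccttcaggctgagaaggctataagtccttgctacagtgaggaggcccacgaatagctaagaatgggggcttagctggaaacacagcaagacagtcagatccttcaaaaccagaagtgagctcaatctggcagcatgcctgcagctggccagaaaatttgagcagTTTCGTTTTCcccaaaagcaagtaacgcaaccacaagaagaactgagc
Oas3: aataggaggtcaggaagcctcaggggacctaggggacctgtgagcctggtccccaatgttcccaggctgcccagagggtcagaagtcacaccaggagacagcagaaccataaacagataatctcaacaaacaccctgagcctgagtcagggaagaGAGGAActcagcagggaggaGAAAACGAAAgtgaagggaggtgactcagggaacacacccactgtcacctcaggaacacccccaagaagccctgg
Ifit1: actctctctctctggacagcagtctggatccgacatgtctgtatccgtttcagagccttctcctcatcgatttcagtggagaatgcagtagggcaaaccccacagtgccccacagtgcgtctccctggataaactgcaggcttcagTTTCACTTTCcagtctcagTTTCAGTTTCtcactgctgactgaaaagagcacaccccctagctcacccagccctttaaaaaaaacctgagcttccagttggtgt

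Rnase6, which encodes a secreted ribonuclease, lies at chr14:51128814-51129063 on the plus strand. It holds a PU.1-type core at 132 bases and the interferon-type motif at 47 bases before the start. Slfn8, a Schlafen gene, lies at chr11:83020811-83021060 on the minus strand with the motif at 48 bases before the start. Oas3, an oligoadenylate synthetase gene, lies at chr5:120777660-120777909 on the minus strand with a PU.1-type core at 95 bases and the interferon-type motif at 75 bases before the start. Ifit1, an interferon-induced gene, lies at chr19:34640639-34640888 on the plus strand and holds the interferon-type motif 2 times, at 104 and 85 bases before the start.

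The monocytes were deeply sampled, with a median of 24604 counts per cell (range 1605 to 58849) and a median of 4919 detected genes (range 1356 to 7128). The median totals of the C1q-high, S100a8/S100a9-high, Mpo/Elane/Prtn3-high and other cells were 14099, 18399, 36633 and 23949. The values that chose the cells are a description only. The sum of the 3 monocyte genes had a median of 8.76 per10k and ranged from 5.02 to 45.7, with a median of 22 counts behind it, although 4 cells passed on 3 or fewer counts. Ms4a6c was counted in 121 of the 125 cells, F13a1 in 97 and Ly6c2 in 42, and only 39 cells held all 3. Ms4a6c was the largest of the 3 in 79 cells, F13a1 in 38 and Ly6c2 in 8, so the rule mostly gathered cells with Ms4a6c or F13a1 rather than Ly6c2-high cells.

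At the limits of the rule, neighbouring cells on either side differed in degree. The 15 members with a sum of 5 to 6 had a pooled Ccr2 level of 6.84 per10k, and the 18 cells just outside, with a sum of 4 to 5, had 4.71. The 239 cells with a sum above 0 and up to 3 had 0.356, and the 715 with a sum of 0 had 0.0633. On the macrophage side, 25 members with 5 to 10 per10k of C1q had a Ccr2 level of 5.53, and 24 cells with 10 to 15 per10k of C1q and enough of the 3 monocyte genes had 6.84 but were left out. The 6 members with 20 to 50 per10k of S100a8 and S100a9 had 5.64 against 1.33 in the 12 cells with 50 to 100, and the 23 members with 10 to 20 per10k of Mpo, Elane and Prtn3 had 5.56 against 3.34 in the 15 cells with 20 to 40. The limits also left out 202 C1q-high, 88 S100a8/S100a9-high and 41 Mpo/Elane/Prtn3-high cells that reached 5 per10k of the 3 monocyte genes.

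The levels of genes that the rule did not name were compared between the classes as pooled per10k values. They describe these cells and were not tested, since the rule divided the same cells by their counts. Ccr2, the receptor through which classical monocytes follow CCL2, led the list of genes ordered by the ratio of the monocytes to all other kept cells. Its level was 6.80 per10k (95% exact Poisson interval 6.52 to 7.09) in the monocytes, 0.412 in the C1q-high, 0.713 in the S100a8/S100a9-high, 0.917 in the Mpo/Elane/Prtn3-high and 0.262 in the other cells. The ratio was 16.5 (15.4 to 17.7) against the C1q-high cells and 7.42 (6.62 to 8.34) against the Mpo/Elane/Prtn3-high cells, the nearest class. Counts of Ccr2 were found in 122 of the 125 cells (97.6%), and the median cell had 6.45 per10k and the highest 33.6.

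Shares of cells depend on depth and were therefore also taken after thinning each cell to 5000 counts, which left out 3 monocytes, 28 C1q-high, 3 S100a8/S100a9-high, 1 Mpo/Elane/Prtn3-high and 21 other cells. Ccr2 was then counted in 114 of 122 monocytes (93.4%, 87.5 to 97.1), 7.65% of the C1q-high, 17.8% of the S100a8/S100a9-high and 26.6% of the Mpo/Elane/Prtn3-high cells. The other cells, which include the cells just below the rule's limit, gave 6.24%. Without thinning, these shares were 97.6%, 14.2%, 22.4%, 48.4% and 11.7%. As a background, 285 of the other cells had at least 1000 per10k of globin and no count of the 3 monocyte genes, a set defined after seeing the data. With a median total of 19568, they gave Ccr2 in 2 of 283 thinned cells (0.707%, 0.0857 to 2.53) and in 14 of 285 (4.91%) without thinning.

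**Figure D1:**
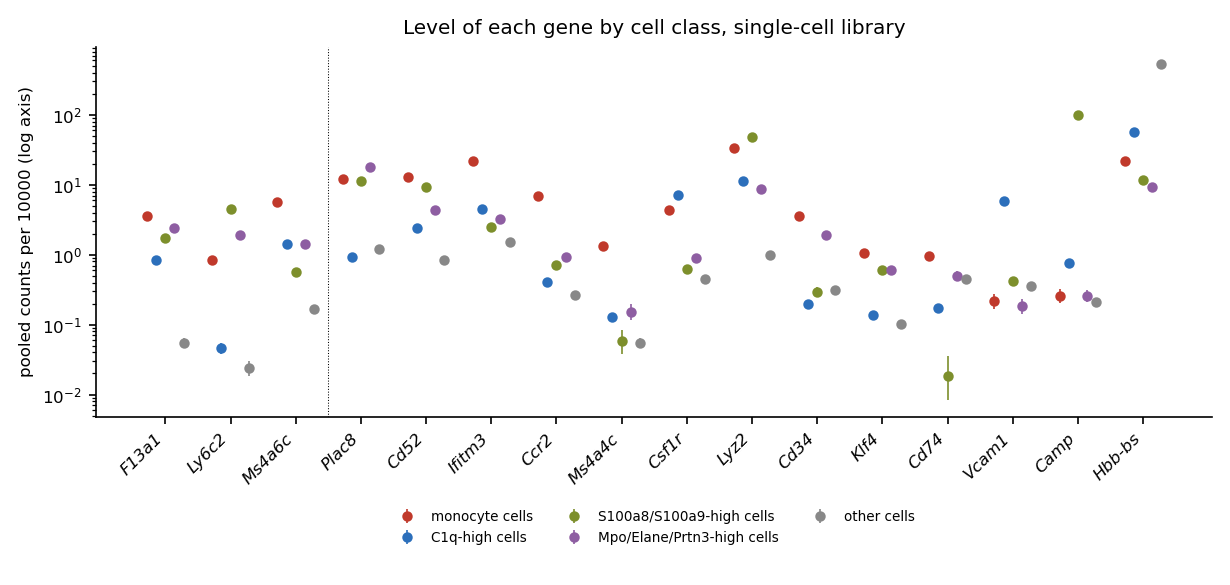
Pooled level (counts per 10000 counts, log axis) of 16 genes in the 5 classes of cells, each point a class and each bar its 95% exact Poisson interval. The dotted line separates the genes used by the rule from the others. Ccr2 stands at 6.80 in the monocytes and below 1 in every other class, whereas Plac8 and Cd52 are also high in granulocytic cells.

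Of the markers given for these cells, 3 were not used by the rule. Ifitm3, an interferon-induced membrane protein that restricts virus entry, stood at 21.7 per10k (21.2 to 22.2) in the monocytes and at 4.44, 2.51, 3.23 and 1.52 in the C1q-high, S100a8/S100a9-high, Mpo/Elane/Prtn3-high and other cells. Plac8, a small cysteine-rich protein of myeloid cells, stood at 12.1 in the monocytes and higher, at 17.9, in the Mpo/Elane/Prtn3-high cells. Cd52, a small glycoprotein of leukocytes, was at 12.9 against 9.41 in the S100a8/S100a9-high cells. Ly6c2 itself was higher in the S100a8/S100a9-high (4.55) and Mpo/Elane/Prtn3-high cells (1.91) than in the monocytes (0.827). Ifitm3 was thus higher in the monocytes than in every class, as was Cd52 by a smaller ratio (1.37 against the S100a8/S100a9-high cells), whereas Plac8 and Ly6c2 were higher in the Mpo/Elane/Prtn3-high cells. For Ly6c2, a gene of the rule, that order depended on the limit. The 46 cells with at least 10 per10k of the 3 monocyte genes had 2.29 per10k of it, above the Mpo/Elane/Prtn3-high cells.

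Further genes of classical monocytes were mixed. Ms4a4c was at 1.33 per10k (1.21 to 1.46) in the monocytes against 0.154 or less in every other class. Of the 12 listed genes, 10 were higher than in the C1q-high, 7 than in the S100a8/S100a9-high and 9 than in the Mpo/Elane/Prtn3-high cells. Lyz2, which encodes lysozyme, was at 33.9 per10k, between 11.4 in the C1q-high and 48.5 in the S100a8/S100a9-high cells. That order depended on the limit of the rule, since the 46 cells with at least 10 per10k of the 3 monocyte genes had 58.2 per10k of Lyz2. Csf1r was at 4.37, below the C1q-high cells (7.21) but 7.09 times the level of the S100a8/S100a9-high cells. Hp, encoding haptoglobin, was at 0.938, below the S100a8/S100a9-high cells (6.64). Vcan was counted in 18 cells, and Chil3, a chitinase-like gene of adult Ly6C-high monocytes, in none of the 125, which allows a level of up to 0.0115 per10k by the Poisson interval. Lyz2 and Ly6c2 have near-identical neighbours, as have the Ifitm, Ms4a6, Oas and Ifi200 genes, so their counts may be split between copies.

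Genes of patrolling monocytes were low or not particular to these cells. Ace was not counted, Nr4a1 was at 0.0407 per10k and Treml4 at 0.0813. Cx3cr1, the fractalkine receptor, was at 1.85 per10k, below the 2.64 of the C1q-high cells. After thinning it was counted in 49.2% of the monocytes and 47.7% of the C1q-high cells (72.8% and 67.5% without thinning). Among the other chemokine receptors, Ccr1 was at 1.01 per10k, while the neutrophil receptor Cxcr2 was at 0.0219 against 0.5 in the S100a8/S100a9-high cells. Ccr7 was not counted. The summed chemokine receptors reached 10.4 per10k in the monocytes, 3.88 in the C1q-high and 2.75 in the S100a8/S100a9-high cells, most of it Ccr2.

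Of 14 listed myeloid transcription factors, 13 had a higher level in the monocytes than in the C1q-high cells. For the S100a8/S100a9-high and Mpo/Elane/Prtn3-high cells, these counts were 10 and 9. Their sum was 23.5 per10k in the monocytes and 15.8, 20.1, 18.1 and 4.33 in the C1q-high, S100a8/S100a9-high, Mpo/Elane/Prtn3-high and other cells. Klf4, a factor required for monocyte formation, was at 1.07 per10k in the monocytes, 7.77 times (6.72 to 8.99) the level in the C1q-high cells but 1.75 and 1.76 times that in the S100a8/S100a9-high and Mpo/Elane/Prtn3-high cells. Spi1 was at 3.47 and Irf8 at 1.71, close to the C1q-high cells at 2.85 and 1.58. The granulocytic factors Cebpe and Gfi1 were at 0.0844 and 0 in the monocytes, against 3.53 and 0.576 in the S100a8/S100a9-high cells. Of the 5 macrophage factors, only Id3 was higher than in the C1q-high cells (5.20 against 3.92), whereas Maf (2.69 against 5.31), Nr1h3 (0.272 against 2.74) and Spic (0.0876 against 1.58) were lower. Klf1 itself was counted in 10 monocytes (8.00%), and after thinning in 1 of 122 (0.820%) against 28.7% of the other cells.

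Interferon-linked genes had a higher sum in the monocytes, at 36.4 per10k against 12.1, 7.42, 12.6 and 5.33 in the C1q-high, S100a8/S100a9-high, Mpo/Elane/Prtn3-high and other cells. Bst2 was at the level of the C1q-high cells, with a ratio of 1.00 (0.885 to 1.13), and the interval for Ifit3 also held 1. Ifitm1 was at 0.359 times (0.328 to 0.394) the level of the Mpo/Elane/Prtn3-high cells. Ifitm3 gave most of that sum, and Ifi27l2a added 4.54, Ifitm2 3.12 and Ifitm1 1.90 per10k. Irf7, a factor that drives interferon production, was at 0.841 and Isg15 at 0.622. Beyond the list, 16 of the 7068 genes counted in at least 25% of the monocytes were at least 3 times as high in the monocytes as in every other class, namely Ahnak, BC147527, Ccr2, Ifi203, Ifi209, Ifitm3, Ms4a4c, Nupr1, Oas3, Pid1, Ppfia4, Rnase6, Rnd3, S100a4, Slfn8 and Zbp1. Among them, Ifi203 and Ifi209 are interferon-inducible genes of the Ifi200 family, Oas3 makes the activator of RNase L, and Zbp1 senses Z-form nucleic acids. Oas3 was 5.86, 25.4, 22.4 and 13.3 times as high as in the C1q-high, S100a8/S100a9-high, Mpo/Elane/Prtn3-high and other cells, and Zbp1 5.32, 9.99, 9.44 and 15.8 times.

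The promoters of the leading genes were read for the same letters as in the runs above. Of the 100 genes with the highest ratio of the monocytes to the remaining cells, 80 had a RefSeq promoter of 250 bases, and 15 of these (18.8%) held the interferon-type motif against 3.0% of all 27025 promoters. The 15 genes were BC147527, Crybg1, Cytip, Emilin2, Fosl2, Gm12250, Gm1966, I830077J02Rik, Ifi206, Ifi211, Ifit1, Mndal, Oas3, Rnase6 and Slfn8. Only Ifit1 is on the interferon-linked list, and Ifi206, Ifi211 and Mndal belong to 1 gene family on chromosome 1, so their promoters are not independent. The motif was in 2 of 76 promoters of the leading genes of the C1q-high cells (2.6%), 0 of 81 of the S100a8/S100a9-high, 2 of 67 of the Mpo/Elane/Prtn3-high (3.0%) and 0 of 74 of the other cells. The PU.1-type core was in 26 of the 80 (32.5%) against 23.1% of all promoters, and in 34.2%, 38.3%, 37.3% and 18.9% for the other classes in the same order, so its share in the monocytes was like that in the other myeloid classes. These shares are descriptions of letters in a window, and the leading genes were chosen on these cells.

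Several leading genes are known from other cells. Cd34, a sialomucin of hematopoietic progenitors and endothelium, was at 3.59 per10k (3.39 to 3.80) in the monocytes, 18.3 times the C1q-high cells but 1.89 times the Mpo/Elane/Prtn3-high cells. After thinning it was counted in 93 of 122 monocytes (76.2%) and 54.3% of the Mpo/Elane/Prtn3-high cells against 10.1% of the other cells (92.0%, 91.6% and 18.2% without thinning). In the globin-rich background set it was counted in 0.707% of thinned cells. The 7 progenitor genes summed to 3.97 per10k against 0.534, 1.83, 5.91 and 1.95 in the C1q-high, S100a8/S100a9-high, Mpo/Elane/Prtn3-high and other cells, most of it Cd34. Kit was at 0.0407 and Flt3 at 0.0532 per10k, low levels that were still 2.84 times (1.40 to 5.38) and 8.87 times (4.29 to 18.2) those of the C1q-high cells. Against the Mpo/Elane/Prtn3-high cells, Kit was at 0.110 times and Flt3 at 1.00 times their level. Napsa, an aspartic protease gene, was at 1.89 against 0.069 in the C1q-high, 1.17 in the S100a8/S100a9-high and 1.20 in the Mpo/Elane/Prtn3-high cells. Lsp1, an actin-binding protein of leukocytes, was at 3.51 against 0.301, 1.43 and 0.893 in the same classes. S100a4, a calcium-binding protein of motile cells, was at 0.352 against at most 0.0688 in any other class, and Rnase6 was 18.7 times the C1q-high level.

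Transcripts of resident macrophages were lower in the monocytes than in the C1q-high cells, with none of 14 listed genes above the C1q-high level and sums of 14.6 against 94.1 per10k. The sum was still above the 7.42, 7.05 and 9.91 of the S100a8/S100a9-high, Mpo/Elane/Prtn3-high and other cells, and 12 of the 14 genes were higher than in the Mpo/Elane/Prtn3-high cells and 6 than in the S100a8/S100a9-high cells. Vcam1, the adhesion molecule of island macrophages, was at 0.216 against 5.82 per10k, a ratio of 0.0371 (0.0288 to 0.0469). Adgre1, which encodes the F4/80 protein used to enrich the cells, was at 1.07 against 5.23 per10k, and was counted in 48.4% of thinned monocytes, 84.7% of C1q-high cells and 13.2% of other cells (85.6%, 95.4% and 40.9% without thinning). Hmox1 and Slc40a1, which degrade heme and export iron, were at 2.04 and 0.910 against 22.9 and 13.4 per10k. The scavenger receptor Marco (0.331 against 7.74) and Timd4, a receptor for dying cells (0.0907 against 2.36), were lower as well. Of the lysosomal proteases, Ctsc, which activates granule proteases, was at 8.73 against 7.63 per10k, while Ctsb, Ctsd and Lgmn were at 4.74, 3.96 and 1.03 against 32.3, 28.6 and 10.1 in the C1q-high cells.

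Against the S100a8/S100a9-high cells, the genes lowest in the monocytes were secondary granule and stefin genes, such as Ngp (0.0657 against 48.3 per10k) and Camp (0.256 against 101, a ratio of 0.00253). Ly6g, Cd177 and Padi4 were not counted in any monocyte. Those highest against the same cells included Ifit1, Cd74, Ifi206 and Gbp4. Of the markers of remaining cell types, 4 of 5 mast cell and basophil, 5 of 6 mesenchymal, 4 of 7 lymphoid and 5 of 8 dendritic cell genes were not counted in any of the 125 cells, among them Ebf1, Cd3e, Rag1, Xcr1, Clec9a, Siglech and Zbtb46. The counted ones made the dendritic cell sum 0.529 per10k against 0.426, 0.041, 0.162 and 0.254 in the C1q-high, S100a8/S100a9-high, Mpo/Elane/Prtn3-high and other cells, and the lymphoid sum 0.907 against 0.550, 0.262, 0.376 and 0.197, so both were highest in the monocytes. Cd79b, a B cell receptor subunit, gave most of the latter, at 0.901 per10k in 92 cells. Cd209a, a lectin of dendritic cells, was at 0.0844 per10k with 27 counts in 15 cells, 42.2 times (17.1 to 125) the C1q-high level, and Batf3, a dendritic cell factor, was at 0.391, 1.05 times that level. The part of such cells in the results was not tested. Erythroid genes summed to 0.697 per10k against 15.4 in the other cells, and to 0.629 without the globin-rich cell described next. Globin transcripts had a median of 34.8 per10k per monocyte, but 1 cell reached 5390 with the next at 365, and that cell held 13 counts of Alas2 and 1 of Ccr2. Without it, the 124 remaining cells had 6.84 per10k of Ccr2, 34.1 of Lyz2 and 0.972 of Cd74.

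**Figure D2:**
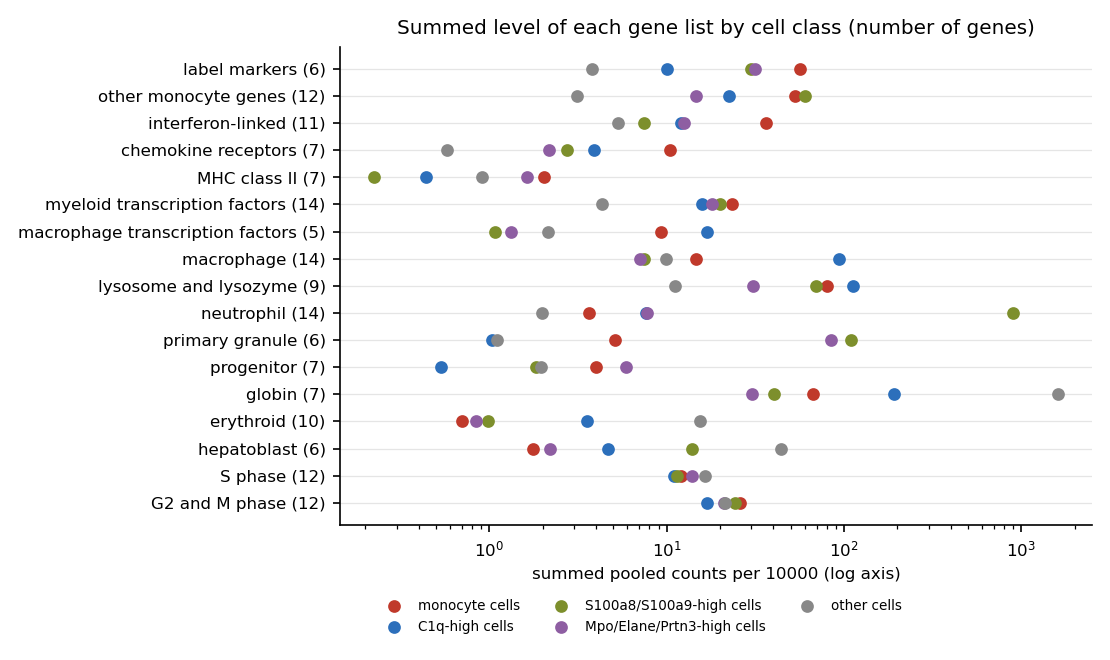
Summed level (counts per 10000 counts) of the genes of 17 lists in the 5 classes of cells. The monocytes lead for the chemokine receptors (10.4) and the interferon-linked genes (36.4), and stand far below the C1q-high cells for the macrophage genes (14.6 against 94.1) and below the S100a8/S100a9-high cells for the neutrophil genes (3.67 against 896, or 0.594 against 196 without S100a8 and S100a9, which the rule used).

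Genes of cell division were expressed in the monocytes. The 12 listed S phase genes summed to 12 per10k, against 11, 11.5, 13.9 and 16.4 in the C1q-high, S100a8/S100a9-high, Mpo/Elane/Prtn3-high and other cells, and the 12 listed G2 and M phase genes to 25.9 against 16.8, 24.2, 21.1 and 21.4. Top2a, the topoisomerase of dividing cells, was at 4.27 per10k against 2.31, 4.21, 3.32 and 3.06. It was counted in 69.7% of thinned monocytes and in 47.1%, 63.1%, 69.1% and 55.3% of the other classes in the same order (82.4%, 66.7%, 78.5%, 95.8% and 76.6% without thinning). Mki67 was at 3.68 per10k against 2.59, 4.23, 2.53 and 4.37. Across the 125 cells, per10k of Mki67 and Top2a had a Spearman rho of 0.787, a description over cells of 1 library that share its preparation.

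The monocytes were not uniform. F13a1 was counted in 97 of them and was at 0 in 28, whose median totals were 25942 and 18988. Since F13a1 is a gene of the rule, cells without it had to pass through Ms4a6c or Ly6c2. Differences between these sets, and the rho values below, only describe the members and cannot be told apart from that choice. Thinning was applied to the genes compared, while the division by F13a1 was kept at full depth. The cells without F13a1 carried more of the MHC class II chaperone Cd74, at 3.87 per10k (3.37 to 4.43) against 0.366 (0.297 to 0.446). A few cells carried that level, since 3 of the 28 had 37.5, 27.6 and 21.9 per10k while the median cell had 1.32, and without these 3, left out after seeing the values, the pooled level was 1.71. The median cell with F13a1 had 0, and the highest 8.45. After thinning, Cd74 was counted in 18 of 27 cells without F13a1 (66.7%, 46.0 to 83.5) and in 11 of 95 with it (11.6%, 5.92 to 19.8), against 23 of 28 (82.1%) and 28 of 97 (28.9%) before. It was counted in 2.71% of thinned other cells and in 0.353% of the thinned globin-rich background set. H2-Aa followed, with 26 counts in 6 cells against 1 count, whereas Ccr7, Xcr1, Clec9a, Siglech and Zbtb46 were not counted in any monocyte, though Cd209a and Batf3 were, as given above. With at least 10 per10k of the 3 monocyte genes in place of 5, Cd74 was at 0.232 rather than 0.966 per10k over the members. Ccr2 was present in both, at 8.68 per10k without and 6.41 with F13a1.

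Other genes also differed with F13a1. Hp was at 1.11 per10k in them and 0.0913 in the cells without F13a1, and it was counted in 64 of 97 (66.0%) and 4 of 28 cells (14.3%). After thinning to 5000 counts these were 33 of 95 and 0 of 27 cells. Mpo was at 3.06 against 0.329, Prtn3 at 2.72 against 0.402 and Lyz2 at 37.7 against 15.8 per10k. Mpo and Prtn3 are genes of the rule's upper limit, which bounds them in both sets, while Elane was at 0.147 against 0.128, Cd34 at 3.68 against 3.14 and Kit at 0.0377 against 0.0548. Ms4a6c was higher without F13a1 (7.34 against 5.23), which the rule makes likely, since a cell without F13a1 had to reach 5 per10k through Ms4a6c or Ly6c2. Over the 125 cells, Spearman's rho was -0.567 for F13a1 and Cd74 and 0.499 for F13a1 and Hp, as descriptions of cells that share a library and differ in depth.

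**Figure D3:**
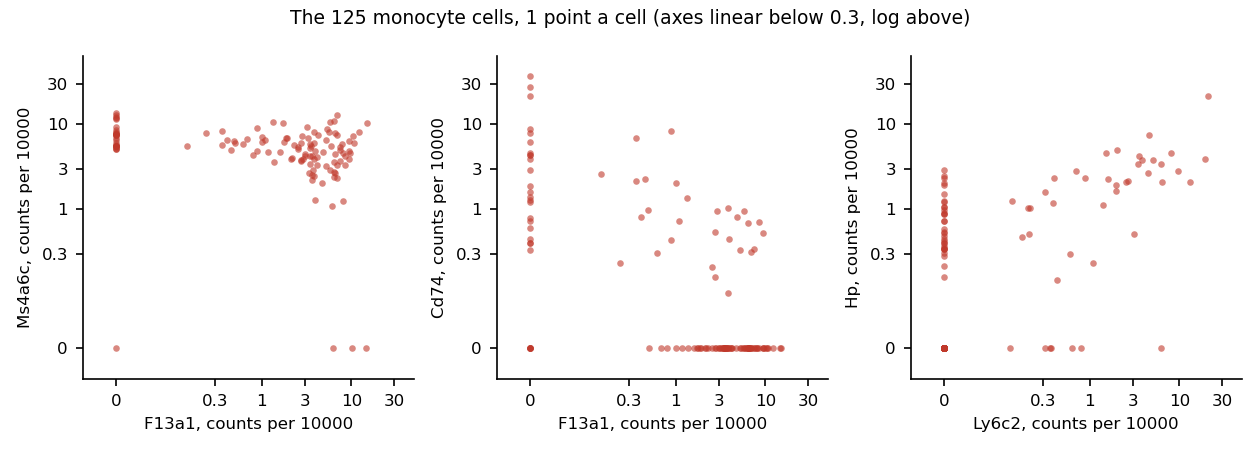
Per10k of F13a1 against Ms4a6c, of F13a1 against Cd74 and of Ly6c2 against Hp in the 125 monocytes, each point a cell, with axes linear below 0.3 and logarithmic above. The highest Cd74 values lie at cells with no count of F13a1, and the highest Hp values at cells with a count of Ly6c2.

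The division by Ly6c2 overlapped that by F13a1, with a rho of 0.308 between F13a1 and Ly6c2. Of the 42 cells with a count of Ly6c2, 39 also had F13a1. Ly6c2 is a gene of the rule too, so differences by it cannot be told apart from the choice of cells. The 42 cells with a count of Ly6c2 had 1.87 per10k of Hp against 0.418 in the 83 without, and after thinning Hp was counted in 24 of 41 (58.5%) and 9 of 81 (11.1%), against 1.77% of other cells (83.3%, 39.8% and 8.96% without thinning). Fn1, encoding fibronectin, was at 1.06 against 0.336 per10k. In the other direction, Cx3cr1 was at 0.876 with and 2.39 without Ly6c2, Csf1r at 3.22 and 5.01, and Maf at 1.12 and 3.56 per10k. By F13a1, Cx3cr1 was at 1.83 with and 1.92 without, and Klf4 went the other way, at 1.48 with and 0.842 without Ly6c2 but 1.01 with and 1.35 without F13a1. After thinning, Maf was counted in 16 of 41 cells (39.0%) and 59 of 81 (72.8%), against 66.7% and 88.0% before, and Ccr2 did not follow the division (6.57 and 6.93 per10k). Cx3cr1 and Maf had a rho of 0.517 over the cells.

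The bulk libraries gave measurements that the choice of cells did not use. They held between 10695514 and 15362161 counts on genes for EKLF+/+ and EKLF-/-, and between 22723199 and 28736342 for EKLF/GFP+ and EKLF/GFP-. The leading genes were chosen on the single cells, and since bulk RNA is a mixture, fewer monocytes and less RNA per monocyte cannot be told apart. The values below are CPM, counts scaled to a common library size after TMM normalization, and were not corrected for gene length. The comparisons have no library in common. Klf1, as a check of the labels, was at 101, 90.2 and 87.3 CPM in EKLF/GFP+ and 34.6, 45.7 and 28.6 in EKLF/GFP-. In the null design it was at 58.7, 64.2 and 57.1 CPM with EKLF-/- and 362, 305 and 376 with EKLF+/+.

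Nearly all leading monocyte genes were lower in the EKLF/GFP+ cells. Of the 100 leading genes, 89 passed the filter of at least 10 counts in at least 3 libraries, and 85 of them were lower and 0 higher at an adjusted p under 0.05 (edgeR quasi-likelihood, Benjamini-Hochberg), with a median log2 fold change of -2.73 against -0.01 over all 14248 genes tested. DESeq2 likewise called 0 leading genes higher, as did edgeR at an unadjusted p under 0.05. Over all genes, 25.8% were lower and 18.9% higher. Their summed level was 627, 746 and 868 CPM in the 3 EKLF/GFP+ libraries and 4840, 4255 and 4754 CPM in the 3 EKLF/GFP- libraries, so the groups did not overlap. A gene that passed the filter only through the group where it is high had to differ, and with at least 10 counts in every library 69 leading genes were tested and 67 lower. The 25.8% lower over all genes belongs to the first filter. For the stricter one, no share over all genes was worked out, here or below. The 16 genes at least 3 times as high in the monocytes as in every other class summed to 52.3 to 72.9 against 591 to 723 CPM.

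The lower level was not a property of the monocyte genes alone. With at least 10 counts in every library, 83 of the leading 100 genes of the S100a8/S100a9-high cells were tested and 81 lower (median log2 fold change -2.61), and 84 of those of the Mpo/Elane/Prtn3-high cells were tested and 82 lower (-2.10), beside the 67 of 69 (-2.62) of the monocytes. Of those of the C1q-high cells, 88 were tested, 10 lower and 6 higher (0.07), and of those of the other cells, 96 were tested and 87 higher (1.35). Markers of further cell types moved too. All 13 neutrophil genes with at least 10 counts in every library, which leaves out Ly6g, were lower (the 14 summed to 130 to 337 against 1668 to 2347 CPM), as were all 6 primary granule genes (381 to 498 against 3101 to 3362), while all 10 erythroid genes (6529 to 7385 against 2486 to 3257) and all 7 globin genes (11522 to 15978 against 6549 to 7957) were higher. Under that filter, 2 of 2 eosinophil genes were higher, and of 6 megakaryocyte genes 5 were higher and 1 lower. Lower were 3 of 5 endothelial, 2 of 5 mesenchymal and 2 of 2 lymphoid genes. Of 12 S phase and 12 G2 and M phase genes, 7 each were higher. The part of these markers in the result was not tested.

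**Figure D4:**
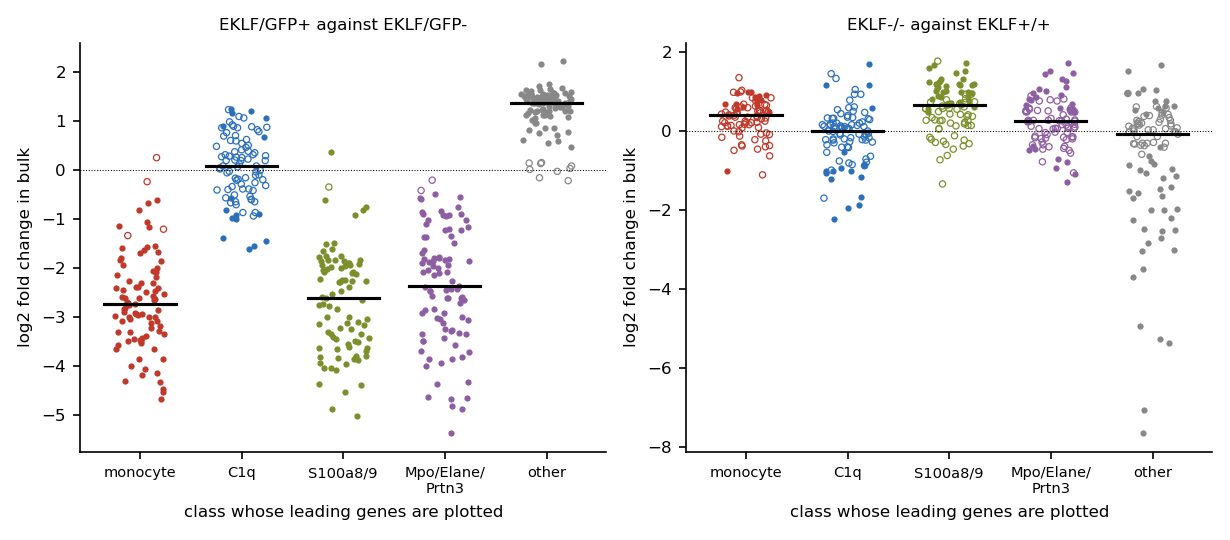
Log2 fold change of the 100 leading genes of each class of cells in both bulk comparisons, each point a tested gene, filled where the adjusted p was under 0.05, with a bar at the median. The monocyte genes center on -2.73 in EKLF/GFP+ against EKLF/GFP- and on 0.39 in EKLF-/- against EKLF+/+.

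Of the genes of the rule, F13a1 was at 11.3, 16.8 and 15.9 CPM for EKLF/GFP+ replicates 1, 2 and 3 against 291, 253 and 256 CPM for EKLF/GFP- (log2 fold change -4.19, SE 0.16, edgeR quasi-likelihood, Benjamini-Hochberg adjusted p = 5.7e-06). Ly6c2 was at 4.42, 5.89 and 6.52 against 132, 96.6 and 136 CPM (-4.44, SE 0.19, adjusted p = 7e-06 from edgeR). Ms4a6c was at 4.79, 6.01 and 7.08 against 60.0, 43.3 and 56.9 CPM (-3.16, SE 0.18, adjusted p = 1.3e-05 from edgeR). The groups did not overlap for any of the 3, and the share of all tested genes without overlap was not counted. Ccr2 was at 13.9, 17.5 and 18.9 CPM against 212, 178 and 191 CPM (log2 fold change -3.53, SE 0.13, adjusted p = 5.7e-06 from edgeR).

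All 6 label markers and 11 of 12 further monocyte genes were lower in EKLF/GFP+, and the exception was Thbs1 (log2 fold change -0.35, adjusted p = 0.0521 from edgeR). With at least 10 counts in every library, which leaves out Chil3 and Ms4a4c, 6 of 6 and 10 of 10 were lower. Plac8 was at 29.8, 48.2 and 46.6 against 232, 241 and 287 CPM, and Ifitm3 at 6.31, 9.66 and 7.08 against 56.9, 44.1 and 70.9 CPM. Lyz2 fell by 3.20 on the log2 scale and Csf1r by 1.75, with Csf1r at 25.4, 45.3 and 64.5 against 166, 130 and 160 CPM. By the rule for the largest changes, the leading genes that fell most were Ms4a4c (-4.53), Gm1966 (-4.29), Lsp1 (-4.17), Ifi211 (-4.13) and Ifi203 (-4.05). Ms4a4c, which passed the filter without reaching 10 counts in every library, was at 0.689, 0.622 and 0.318 against 15.5, 8.66 and 14 CPM, while Gm1966 was at 19.2, 23.3 and 29.0 against 489, 450 and 455 CPM.

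Receptors and transcription factors were lower as well. All 7 chemokine receptors, all 11 growth factor and cytokine receptors and all 14 myeloid transcription factors were lower, beside 25.8% of all genes tested. With at least 10 counts in every library, 6 of 6, 11 of 11 and 13 of 13 were lower, the last without Klf4 and with a median log2 fold change of -2.20. Spi1 was at 13.2, 15.8 and 21.6 CPM against 104, 93.5 and 100, Irf8 at 1.74, 4.19 and 4.22 against 41.7, 32.0 and 47.2, and Klf4 at 0.290, 0.249 and 0.278 against 6.54, 6.12 and 5.60. Klf6 was the least firm of these named factors (-0.78, adjusted p = 0.0233 from edgeR), as it lost the call when any of 4 single libraries was left out, namely EKLF/GFP+ 1 (-0.62), EKLF/GFP+ 2 (-0.67), EKLF/GFP- 1 (-0.62) or EKLF/GFP- 3 (-0.78). Of the 5 macrophage factors only Id3 was lower (-2.34), and of 12 tested macrophage genes 2 were higher and 1 lower. Cd34 was at 13.9, 14.8 and 16.9 against 242, 184 and 233 CPM, a log2 fold change of -3.85 (SE 0.14, adjusted p = 5.4e-06 from edgeR). Fn1 fell by 0.63 (adjusted p = 0.0177 from edgeR) and lost the call without EKLF/GFP- replicate 1 (-0.58).

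Interferon-linked and antigen presentation genes went the same way. Of 11 interferon-linked genes 8 were lower, as were the 7 MHC class II genes. With at least 10 counts in every library, these were 6 of 9 and 4 of 4, the latter without Ciita, H2-Aa and H2-Eb1. Cd74 was at 0.435, 0.539 and 0.756 CPM against 6.61, 4.22 and 4.37. The genes with the interferon-type promoter motif shown above were all lower, with Rnase6 at 1.45, 2.16 and 2.51 against 6.5, 5.77 and 5.98 CPM, Slfn8 at 1.81, 1.87 and 1.79 against 28.0, 11.7 and 17.0 CPM, and Oas3 at 0.290, 0.290 and 0.239 against 3.23, 1.41 and 2.42 CPM. The log2 fold changes were -1.58, -3.37 and -3.08, and Ifit1 fell by 2.00 on the log2 scale. Oas3 and Ifit1 did not reach 10 counts in every library. Of the leading genes with that motif that did, 11 of 11 were lower, a share to be read against 67 of 69 among all leading genes under the same filter.

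**Figure D5:**
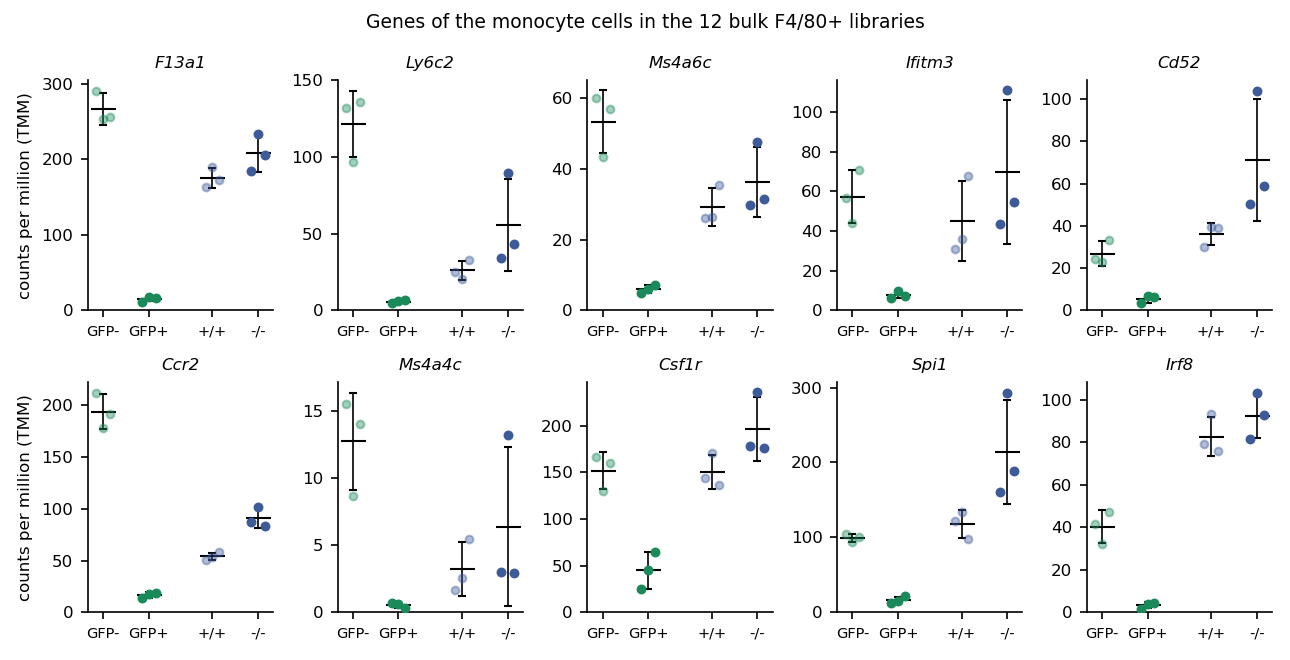
CPM (TMM-normalized, linear axis from 0) of 10 monocyte genes in the 12 bulk libraries, each point a library, with the mean and SD of the 3 libraries of a group. Light points are EKLF/GFP- and EKLF+/+ and dark points EKLF/GFP+ and EKLF-/-. The EKLF/GFP groups do not overlap for any gene shown, whereas for F13a1, Ms4a6c, Ifitm3, Ms4a4c and Irf8 the EKLF+/+ and EKLF-/- groups do. How many of all tested genes do not overlap was not counted.

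In EKLF-/- cells the change was small and mostly upward. Of 84 leading monocyte genes tested, 15 (17.9%) were higher and 1 lower, with a median log2 fold change of 0.39 against 0.02 over all 12753 genes, of which 9.72% were higher and 10.6% lower. The summed level was 3743, 5365 and 4026 CPM across EKLF-/- replicates 1, 2 and 3 and 3032, 3553 and 3299 CPM across EKLF+/+, so the groups did not overlap, although EKLF-/- replicate 2 stood well above the other two. The count changed when single libraries were left out. It was 2, 5 and 3 without EKLF+/+ replicates 1, 2 and 3, and 24, 13 and 2 without EKLF-/- replicates 1, 2 and 3. The number of genes higher over the whole table changed as well, as given in the closing section. Whether the leading genes changed more than the others was not tested. The 15 higher genes were Ccr2, Fut7, Napsa, Fkbp1b, Ppfia4, Cd52, Capg, Coro1a, Cytip, Gapt, Myo1f, Lmo1, Emilin2, Vim and Mcemp1, and 13 of them had at least 10 counts in every EKLF/GFP library, all but Fut7 and Lmo1. These 13 were lower in EKLF/GFP+, a count to be read against the 67 of 69 given above. Of the 16 genes set apart from every class, only Ccr2 and Ppfia4 were higher.

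Ccr2 was at 87.5, 102 and 83.3 CPM with EKLF-/- and 50.8, 53.2 and 57.9 CPM with EKLF+/+ (log2 fold change 0.75, SE 0.11, edgeR quasi-likelihood, Benjamini-Hochberg adjusted p = 0.00379). Gapt, an adaptor protein gene, was at 28.8, 36.0 and 29.7 against 14.6, 18.5 and 15.1 CPM (0.97, SE 0.15, adjusted p = 0.00426 from edgeR). The groups did not overlap for either gene, and both kept the call under every alternative run. Here too, the share of all tested genes without overlap was not counted. Dusp1, which encodes a phosphatase that switches off MAP kinases and was the only leading gene lower, was at 40.2, 53.5 and 59.3 against 102, 106 and 105 CPM (-1.03, SE 0.14, adjusted p = 0.00259 from edgeR).

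Most genes of the label spread more widely within EKLF-/- than the group means lay apart. F13a1 was at 184, 234 and 205 against 163, 190 and 173 CPM (log2 fold change 0.24, adjusted p = 0.172 from edgeR) and Ms4a6c at 29.8, 47.6 and 31.5 against 26, 26.3 and 35.3 CPM. Ly6c2 was at 33.9, 89.7 and 43.3 against 24.8, 20.5 and 32.8 CPM (1.10, SE 0.35, adjusted p = 0.0551 from edgeR). Plac8 was at 269, 558 and 308 against 204, 194 and 276 CPM (0.75, adjusted p = 0.0792 from edgeR). Replicate 2 was the highest EKLF-/- library for all 4. Ly6c2 and Plac8 passed the threshold under DESeq2, with no filter on low counts and without EKLF-/- replicate 1. Only Cd52 passed among the 6 label markers, at 50.2, 104 and 59.0 against 29.9, 39.4 and 38.7 CPM (0.98, SE 0.26, adjusted p = 0.0334 from edgeR), and it lost the call without any 1 EKLF+/+ library or without EKLF-/- replicate 3.

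Of 12 further monocyte genes, Ccr2, Lyz2, Hp and Ly86 were higher. Lyz2 was at 653, 1182 and 844 CPM in EKLF-/- and 416, 587 and 548 in EKLF+/+ (0.79, SE 0.22, adjusted p = 0.0402 from edgeR). Hp was at 136, 257 and 168 against 90.9, 123 and 91.9 CPM, and Ly86, a partner of the receptor RP105, at 21.2, 38.1 and 23.3 against 13.3, 15.5 and 17.9 CPM. Lyz2, Hp and Ly86 lost the call under the same 4 leave-outs as Cd52. Ms4a4c was at 2.99, 13.2 and 2.93 against 1.66, 2.53 and 5.48 CPM (0.98, adjusted p = 0.288 from edgeR), and its sign turned to -0.14 without EKLF-/- replicate 2. Csf1r (0.38, adjusted p = 0.093 from edgeR) and Cx3cr1 (0.33, adjusted p = 0.176 from edgeR) did not pass.

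Of 14 myeloid transcription factors in EKLF-/-, Spi1, Cebpd, Cebpe, Gfi1 and Irf5 were higher and Zeb2 was lower. Spi1 was at 161, 293 and 188 against 122, 134 and 98.1 CPM (0.86, SE 0.22, adjusted p = 0.0299 from edgeR), again without overlap and again lost under the same leave-outs. Irf8 was at 81.7, 103 and 92.9 against 79.0, 93.1 and 76.0 CPM and Klf4 at 13.9, 14.2 and 13.4 against 15, 11.5 and 12.3 CPM, and for both the groups overlapped. Of 10 tested interferon-linked genes 0 passed edgeR's threshold in either direction, while 1 was higher at an unadjusted p under 0.05 and the same number passed under DESeq2. Oas3 was at 4.73, 6.73 and 5.39 CPM in EKLF-/- and 2.31, 3.13 and 16.6 in EKLF+/+, and Ifit1 at 1.32, 3.9 and 1.46 against 0.832, 2.27 and 11.4 CPM, so EKLF+/+ replicate 3 stood above every other library for both genes. The sign of both turned without that library, from -0.38 to 1.00 for Oas3 and from -1.12 to 0.44 for Ifit1.

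Of 6 tested MHC class II genes only H2-Ab1 was higher, at 3.27, 3.67 and 3.47 against 1.11, 0.666 and 1.33 CPM (1.76, SE 0.29, adjusted p = 0.00574 from edgeR), a call kept in each alternative that tested it. With at least 10 counts in every library, H2-DMb1 passed as well, so that 2 of 5 were higher. Cd74, which varied between the monocytes with F13a1, was at 5.56, 27.4 and 5.78 CPM in EKLF-/- and 6.10, 6.33 and 5.97 in EKLF+/+, and its log2 fold change of 1.07 became -0.13 without EKLF-/- replicate 2. Cd34 was at 191, 192 and 184 against 190, 225 and 195 CPM (-0.10, adjusted p = 0.484 from edgeR), while Flt3, a receptor of early progenitors, was at 10.8, 10.2 and 14.7 against 28.7, 34.7 and 29.5 CPM (-1.38, SE 0.17, adjusted p = 0.00151 from edgeR).

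Granulocytic genes moved beside the monocyte genes in EKLF-/-. Of 87 tested leading genes of the S100a8/S100a9-high cells 37 were higher, with a median of 0.64, and of 92 of the Mpo/Elane/Prtn3-high cells 21 were higher and 8 lower. Of the lists, 5 of 6 primary granule genes were higher (5285, 10803 and 6224 against 4386, 4963 and 3616 CPM) and 4 of 13 tested neutrophil genes were higher and 1 lower (3064, 5457 and 3945 against 1824, 2855 and 2459 CPM). Of 10 erythroid genes 6 were lower (4039 to 5865 against 11120 to 12972 CPM) and of 12 macrophage genes 3 were lower. Also lower were 3 of 4 tested globin genes (2351 to 3406 against 14184 to 24775 CPM), 4 of 5 endothelial (73.6 to 88.5 against 142 to 179), 4 of 5 tested mesenchymal (19.7 to 30.4 against 35.0 to 130) and 4 of 7 progenitor genes (540 to 576 against 715 to 879). In both granulocytic sums EKLF-/- replicate 2 was again the highest library, as it was for the summed label markers (611, 1144 and 701 against 479, 506 and 624 CPM). Their part in the monocyte result was not tested.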

How the data were processed

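STAR alignment and HTSeq counting by the authors gave the EKLF+/+ and EKLF-/- tables, whose deposited raw counts of 23337 genes were used, without the reads that were not assigned to a gene (67.2% to 72.7%). Of its symbols, 1919 older ones were translated to current ones, and 5 columns that repeat other libraries were not used. For the EKLF/GFP libraries, the authors made estimated counts per transcript with Salmon, which were summed here to 35454 genes (115977 of 116546 transcripts joined) and rounded. For the single cells (Chromium v3), the authors ran alevin, whose deposited values are estimated counts of molecules, rounded here for intervals. The bulk kit was stranded, but the strand setting of the counting is not given in the sources used here. The authors' fold changes and p-values were not used.

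The cells, gene lists and comparisons were chosen with earlier results of these data known. Named genes are those of the lists, the 25 with the highest ratio of the monocytes to all other cells among genes counted in at least 25% of them, the 10 highest ratios each way against the C1q-high and S100a8/S100a9-high cells, and, of the 100 leading genes, the 5 largest bulk changes each way where normalized counts averaged 100 or more. Genes set apart 3 times from every class, and those with the interferon-type motif, were named after their values were seen. Scrublet (scanpy 1.11.5) marked 0 cells and so gives no information on doublets. Poisson, conditional binomial and Clopper-Pearson intervals are 95%, and the upper bound of a count of 0 is the Poisson or binomial one.

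Bulk tests were two-sided, by edgeR 4.0.16 (quasi-likelihood, TMM, R 4.3.3), on genes reaching 10 counts in 3 or more of 6 libraries, each comparison fitted alone, with p-values adjusted after Benjamini-Hochberg across the whole table and called below 0.05. An exact test of 3 against 3 libraries could not reach that threshold. Scripts were tested on simulated data. Results for some listed genes are left out. Alternatives were DESeq2 1.42.0, its size factors in edgeR, other count filters, a replicate block, leaving out each library, and other limits of the cell rule.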

Additional observations from a re-analysis of the deposited data

How the results depend on the processing

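The number of monocytes depended on the lower limit of the rule, with 46 cells at 10 per10k or more in place of 125, and 153 at 3 or more. At 10 or more, Lyz2 was at 58.2 rather than 33.9 per10k, above the S100a8/S100a9-high cells. Ly6c2 was at 2.29 rather than 0.827, above the Mpo/Elane/Prtn3-high cells, and Cd74 at 0.232 rather than 0.966. The number was 100 with C1q below 5, 119 with S100a8 and S100a9 below 20, 121 without cells over 2 times the median total and, in an alternative chosen after seeing the data, 124 without the globin-rich cell. Thinned to 2000 rather than 5000 counts, the shares of monocytes with a count fell from 93.4% to 67.7% for Ccr2, from 44.3% to 21.0% for Ms4a4c, from 76.2% to 41.9% for Cd34 and from 23.8% to 12.1% for Cd74, so these shares are limited by depth.

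In EKLF/GFP+ against EKLF/GFP-, 76 to 85 leading monocyte genes were lower and 0 higher when each library was left out, among 2822 to 3454 genes lower and 1916 to 2786 higher, and DESeq2 called 84 leading genes lower. Of 298 refitted values of named genes there, 290 kept direction and call, 5 lost the call and 3 gained it. In EKLF-/- against EKLF+/+, leaving out each library gave 2 to 24 leading genes higher and 1 to 2 lower, among 346 to 1730 genes higher and 575 to 1889 lower, against 1239 and 1356 with all libraries. DESeq2 called 18 leading genes higher. Of 351 refitted values there, 299 kept direction and call, 41 lost the call, 6 gained it and 5 changed sign. The changes of sign were Ms4a4c (-0.14, range -0.14 to 1.55 over the leave-outs) and Cd74 (-0.13, range -0.13 to 1.43) without EKLF-/- replicate 2, Oas3 (1.00, range -0.80 to 1.00) and Ifit1 (0.44, range -1.80 to 0.44) without EKLF+/+ replicate 3, and Oas3 (0.08) with the replicate block.

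Deviations of same-numbered libraries from their group means correlated between -0.146 and 0.0202 in the EKLF/GFP groups and between -0.0188 and 0.0192 in the other groups. These values run over all tested genes, where the noise of single genes can keep them low. They cannot show whether libraries with the same replicate number were paired. With the number as a block, 86 leading genes were lower in EKLF/GFP+ (3426 genes lower and 2363 higher in all), and 15 were higher and 1 lower in EKLF-/- (864 higher and 1037 lower in all).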
